A study of Mus musculus with 4 samples.

Results

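The genes described here encode granins, enzymes that process prohormones, and proteins of the secretory granule membrane, measured in mouse pancreatic islets. Membership was by name: 10 genes were listed, and 9 of them had a probeset (a set of array probes that reads a transcript) paired with that gene symbol alone, out of 22180 genes measured in this way. The 9 were the granins Chga, Chgb, Scg2, Scg3 and Vgf, the processing enzymes Pcsk1 and Cpe, and the granule membrane proteins Slc30a8 and Ptprn. The tenth, Pcsk2, had no probeset under its name in the platform annotation and is not analysed here. Each of the 9 had a single such probeset, so no choice between probesets bears on their values.

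Islets came from C57BL/6 mice 5 to 6 months old, either WT littermates or 41 Tg mice, which carry a GPR41 transgene, with 2 arrays per group. GPR41, encoded in the mouse by Ffar3, senses short-chain fatty acids such as acetate and propionate. The islets of both groups were incubated in RPMI medium before RNA was taken. The labels name neither the promoter nor the cell type that drives the transgene, nor whether an array holds islets of several animals, and they name no compound given to either group. The study concerns insulin secretion and metabolism, and the comparison of Tg with WT islets asks here whether the genes that build and fill the hormone granule differ with the transgene.

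Peptide hormones are made as larger precursors, packed into dense-core granules at the trans-Golgi network and cut there to their active forms. Granins are acidic, calcium-binding proteins that aggregate with the hormones in the granule and are themselves cut to peptides. The prohormone convertases encoded by Pcsk1 and Pcsk2 cut precursors after pairs of basic residues, and carboxypeptidase E, encoded by Cpe, trims the basic residues that remain. In the beta cell the zinc transporter encoded by Slc30a8 loads granules with the zinc that insulin crystallises with, and the receptor-like phosphatase encoded by Ptprn, also known as IA-2, spans the granule membrane.

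Promoter sequences of these genes are shown first because several granin and convertase genes are known to be cAMP-responsive, and GPR41 couples to an inhibitory G protein that lowers cAMP. The RefSeq table (GRCm38.p6) had entries for 7 of the 10 genes, Pcsk2 among them. Vgf, Cpe and Slc30a8 had no entry, so their promoters were not searched. Each entry ran from 250 bases before a transcript start to 50 after it. The 8-letter cAMP response element TGACGTCA, which reads the same on both strands, was found in the entries of Chgb, Scg2 and Pcsk1. It was present in 1.79% of all 32851 promoters of that length. Its first letter lay 72 bases before the start in Chgb, 68 in Scg2 and 78 in Pcsk1. The shorter run TGACG, or CGTCA on the other strand, is part of that element. It was found in the entries of all 7 genes and in 20.8% of all promoters. Windows of 80 bases, from 100 to 21 bases before the start, follow 5′ to 3′ on the strand of the gene, with the full element in capitals where there is one and the shorter run in capitals otherwise. They lie at chr2:132781542-132781621 (plus strand) for Chgb, chr1:79440047-79440126 (minus) for Scg2, chr13:75089757-75089836 (plus) for Pcsk1, chr12:102554841-102554920 (plus) for Chga and chr9:75684077-75684156 (minus) for Scg3.
Chgb: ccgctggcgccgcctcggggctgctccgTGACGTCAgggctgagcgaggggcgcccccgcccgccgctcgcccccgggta
Scg2: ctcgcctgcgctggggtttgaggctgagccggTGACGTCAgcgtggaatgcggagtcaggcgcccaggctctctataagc
Pcsk1: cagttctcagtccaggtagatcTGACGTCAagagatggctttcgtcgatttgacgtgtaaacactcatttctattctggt
Chga: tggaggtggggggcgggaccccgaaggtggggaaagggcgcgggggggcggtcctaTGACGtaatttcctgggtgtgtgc
Scg3: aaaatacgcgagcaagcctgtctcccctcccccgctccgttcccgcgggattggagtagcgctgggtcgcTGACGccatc
The E-box CANNTG was found in 5 of the 7 entries and in 72.3% of all promoters. The run CAGCACC, the left part of the RE1 site of the repressor REST, or its reverse complement GGTGCTG, was found in 2 of the 7, Chgb and Scg2, and in 7.14% of all promoters. These matches are letters in a window and do not show binding.

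Values are on a log2 scale as deposited, after RMA (robust multi-array average, which normalises the arrays to each other). Median values of the arrays lay between 6.43 and 6.47. Ffar3 read 7.09 and 6.47 on WT arrays 1 and 2, and 11.02 and 10.98 on Tg arrays 1 and 2, in the direction of the labels. Differences below are Tg minus WT from limma, fitted over all 22180 genes, with Benjamini-Hochberg adjusted p-values and a threshold of 0.05. With 2 arrays per group an exact two-sided permutation test cannot go below 0.333, so the p-values rest on limma's model of the variance. The sample titles describe the replicates as biological.

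Islet identity was plain on all 4 arrays, with Ins2 between 12.46 and 12.59, Gcg between 13.45 and 13.64 and Sst between 12.87 and 13.43. Acinar and duct transcripts were present too, and unevenly within the WT group. The acinar gene Ctrb1 ranked 1st of all genes on WT array 2 and on each Tg array, and 4th on WT array 1. Ins2 ranked between 72nd and 96th. Averaged over 10 acinar markers the level was 9.71 on WT array 1 and 10.6 on WT array 2, against 10.35 and 10.04 on the Tg arrays. For 6 duct markers it was 7.79 and 9.13 against 8.75 and 8.52. Immune markers separated the groups: averaged over 14, the level was 7.05 and 6.97 in WT against 8.17 and 7.74 in Tg.

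None of the 9 granule genes passed the adjusted threshold, in either direction, while 0.897% of all genes did (199 of 22180), 0.672% higher and 0.225% lower in Tg. Without adjustment, 3 of the 9 had a p under 0.05, namely Chgb, Vgf and Slc30a8, against 11.8% of all genes. Chgb was higher in Tg islets, and Vgf and Slc30a8 were lower. The groups did not overlap for 6 of the 9 (2 higher and 4 lower in Tg), against 42.3% of all genes (18.6% higher and 23.7% lower). The median difference of the 9 was -0.05, beside -0.017 over all genes, and the median size of a difference, sign aside, was 0.15 against 0.12. All 9 intervals lay within a 2-fold change either way, from a lowest bound of -0.89 for Vgf to a highest of 0.88 for Chgb. A missed threshold does not show that a gene was equal in the groups.

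**Figure D1:**
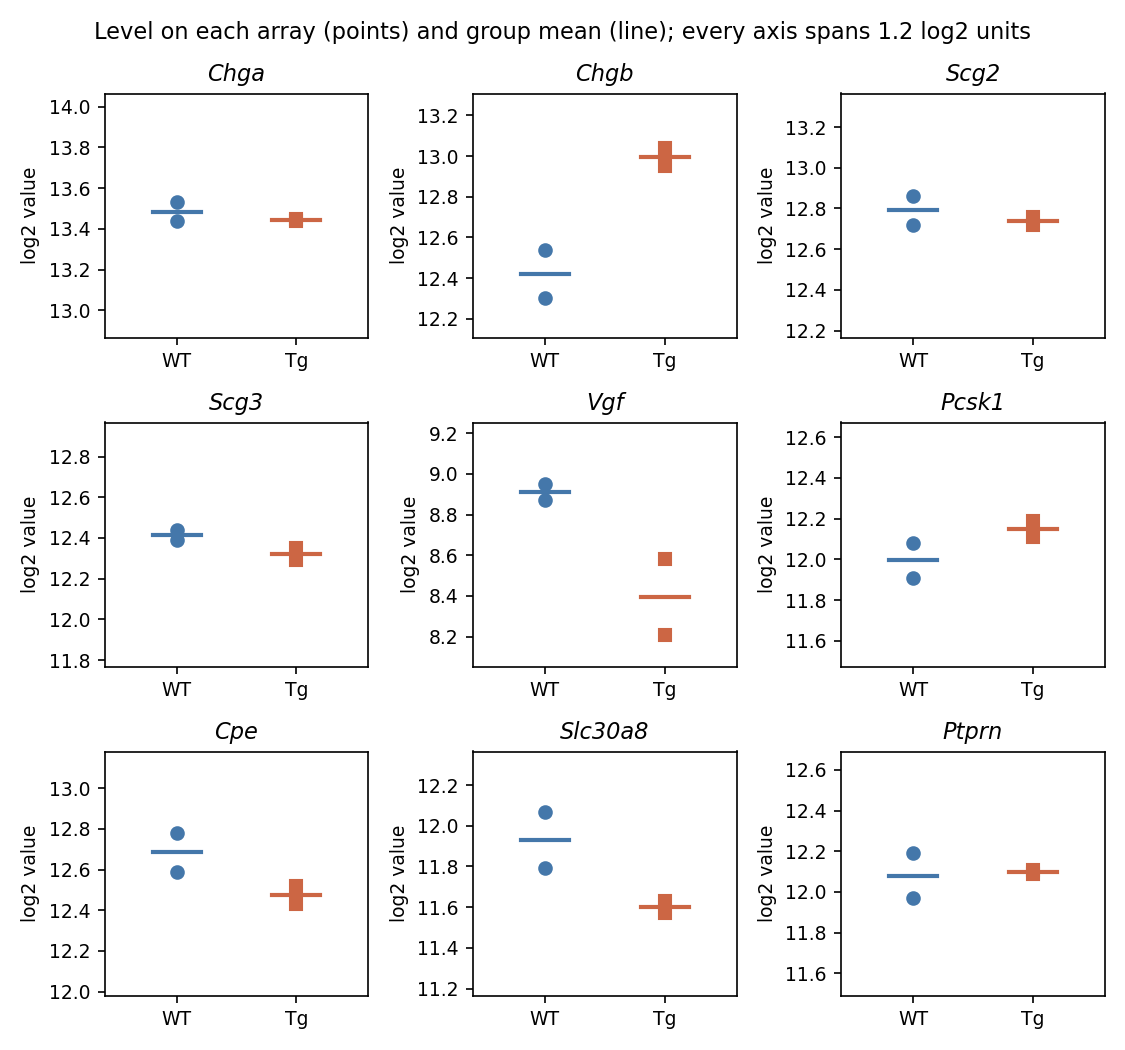
Log2 value of each granule gene on each array, with WT arrays as circles, Tg arrays as squares and the mean of each group as a line. The axes have the same span in all panels, so that the distance between the groups of Chgb (means 12.42 and 13.0) and Vgf (8.91 and 8.4) can be set against the small distances of Chga, Scg2 and Ptprn.

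Brightness placed 8 of the 9 genes among the strongest signals of the islet arrays. Ranked among all 22180 genes on an array, Chga stood between 5th and 10th, and the lowest place of the 8 on any array was 336th, of Slc30a8 on Tg array 1. Vgf was the exception, between the 70.22 and 78.99 percentile. Brightness depends on the probes as well as on the transcript, so these ranks do not order the genes by RNA amount. Signals near the top of the scale can also be compressed. The fold changes of the 8 bright genes may for that reason be understated.

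Among the granins, Chgb, which encodes chromogranin B (secretogranin I), stood at 12.54 and 12.3 in WT islets and at 13.04 and 12.95 in Tg islets. Both Tg arrays were above both WT arrays, and the distance between the groups exceeded the 0.24 between the WT arrays. The difference was 0.58 (SE 0.12, 95% interval 0.27 to 0.88), a 1.49-fold higher level in Tg, with an adjusted p of 0.148 from limma. In size it was above 96.2% of all genes. Over 14 alternative settings the adjusted p ranged from 0.0338 to 0.571. Chgb passed the threshold in 1 of them, the variance trend with a robust prior (adjusted p = 0.0338). Its place on the arrays moved from 79th and 133rd in WT to 32nd and 31st in Tg.

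Chga encodes chromogranin A, the precursor of pancreastatin and the founding granin. It read 13.53 and 13.44 in WT and 13.44 and 13.45 in Tg. The groups overlapped, and the difference was -0.035 (interval -0.29 to 0.22). Taken within each array, Chgb minus Chga was -0.99 and -1.14 in WT and -0.4 and -0.5 in Tg, a shift of 0.61. Chga is among the brightest signals of every array, where values can be compressed, so this shift does not show that the chromogranins changed unequally. Its exact two-sided permutation p was 0.333, the smallest that 2 against 2 arrays allow. The full cAMP response element shown above is in the Chgb window. The Chga entry holds the shorter run, which there reads TGACGtaa and differs from the full element only in its next-to-last letter. Only exact matches were counted as the full element, and any part of these sequences in the differences was not tested.

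Scg2 encodes secretogranin II, the precursor of secretoneurin, and shares the full element with Chgb. It stood at 12.86 and 12.72 in WT and at 12.72 and 12.76 in Tg, with overlapping groups and a difference of -0.05 (interval -0.32 to 0.22). Scg3 encodes secretogranin III, which binds chromogranin A and cholesterol-rich granule membrane. It read 12.44 and 12.39 in WT and 12.29 and 12.35 in Tg. Its groups did not overlap, yet the difference was small at -0.096 (interval -0.35 to 0.16, adjusted p = 0.803 from limma).

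Vgf, a granin-like precursor cut to several neuroendocrine peptides, differed in the opposite direction from Chgb. Its level was 8.95 and 8.87 in WT, against 8.21 and 8.58 in Tg. Both Tg arrays were below both WT arrays, although the Tg arrays stood 0.38 apart, the widest gap between replicates among the 9 genes. The difference was -0.52 (SE 0.15, 95% interval -0.89 to -0.14), a 1.43-fold lower level in Tg, with an adjusted p of 0.268. Without Tg replicate 1 the difference was -0.33. Across all genes, 95.2% had a difference of smaller size.

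Of the processing enzymes, Pcsk1, which encodes prohormone convertase 1/3, read 12.08 and 11.91 in WT and 12.11 and 12.19 in Tg. The Tg arrays were just above the WT arrays, and the difference was 0.15 (interval -0.13 to 0.44, adjusted p = 0.689 from limma). Without WT replicate 2 it was 0.068. The Pcsk1 window holds the same full element as that of Chgb. Of the 7 genes with a promoter entry, the 3 with this element had differences of 0.58 (Chgb), 0.15 (Pcsk1) and -0.05 (Scg2). The promoters of Vgf, Cpe and Slc30a8 were not searched for it. Cpe stood at 12.78 and 12.59 in WT and at 12.52 and 12.43 in Tg. Each Tg array was below each WT array, by a mean of 0.21 (interval of the difference -0.5 to 0.08). Without WT replicate 1 the Cpe difference was -0.12.

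Of the granule membrane proteins, Slc30a8 read 12.07 and 11.79 in WT, against 11.57 and 11.63 in Tg. The Tg arrays lay close together and below both WT arrays, which were 0.28 apart. The difference was -0.33 (SE 0.13, 95% interval -0.66 to -0.01), a 1.26-fold lower level, with an adjusted p of 0.407. It was -0.19 without WT replicate 1 and -0.48 without WT replicate 2. Ptprn read 12.19 and 11.97 in WT and 12.09 and 12.11 in Tg, so that the Tg values fell between the WT values (difference 0.021, interval -0.27 to 0.32). Its relative Ptprn2, which encodes phogrin (IA-2 beta), was at 10.82 and 10.65 in WT and 10.66 and 10.56 in Tg (difference -0.12, interval -0.41 to 0.16). Ptprn minus Ptprn2 within an array was 1.37 and 1.32 in WT and 1.43 and 1.55 in Tg (exact permutation p = 0.333).

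**Figure D2:**
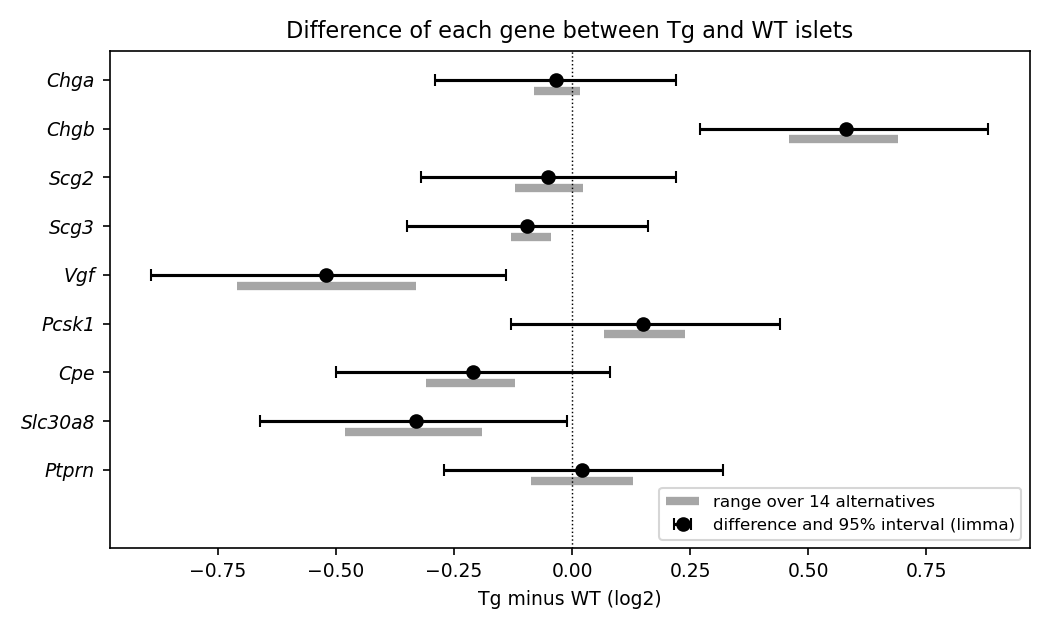
Difference between Tg and WT islets for each granule gene (points, log2) with the 95% interval from limma (black bars) and the range of the difference over the 14 alternative settings (grey bars). The intervals of Chgb, Vgf and Slc30a8 do not reach 0, and the Vgf interval, from -0.89 to -0.14, is the widest.

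The WT arrays themselves differed in a common direction. All 9 genes were higher on WT array 1 than on WT array 2, by 0.05 to 0.28 with a median of 0.17. Of all genes 55.5% were higher there, with a median of 0.027. The direction was not particular to the 9 genes. Beta cell markers averaged 11.47 on WT array 1 and 11.26 on WT array 2. Alpha cell markers averaged 10.56 and 10.31, and delta and PP cell markers 11.04 and 10.78. The mean of the listed peptide precursor genes went the other way (7.78 and 7.92). Array 2 was the WT array with the higher acinar mean (10.6 against 9.71) and duct mean (9.13 against 7.79). In whole islets, fewer cells of a type and less RNA per cell cannot be told apart. The part of acinar or duct RNA in the differences between Tg and WT was not tested. Without WT replicate 2, Chgb had a difference of 0.46, and without WT replicate 1 it had one of 0.69. Centring each array on the median of the 9 genes takes out their common shift by construction. None passed the adjusted threshold then either, and Chgb had a difference of 0.63 (adjusted p = 0.105 from limma).

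Beta cell markers, for the cell type that holds most granules of an islet, had 0 of 11 members past the test and a median difference of -0.051. They averaged 11.47 and 11.26 in WT, against 11.23 and 11.3 in Tg. Of these markers 5 were higher in Tg and 6 lower, the lowest being Ucn3 (-0.6) and Gjd2 (-0.43), whose groups did not overlap. All 5 measured alpha cell markers were lower in Tg (median -0.67) with 0 past the test, among them the transcription factor gene Etv1 at -0.94 (adjusted p = 0.0658 from limma) and Gcg at -0.15. Delta and PP cell markers had a median of -0.26, and 0 of 6 passed. The 11 endothelial markers (median 0.33) and the 11 mesenchymal markers (median 0.27) were higher in Tg without a member past the test. The mesenchymal differences ran from 0.03 to 1.79, the highest being that of Dcn (adjusted p = 0.0538 from limma). Among the immune markers (median 1.02), 1 of 14 passed, the leukocyte actin-binding protein gene Coro1a (0.94, adjusted p = 0.0309), and its adjusted p lay between 0.0801 and 0.167 with any 1 array left out. Acinar markers had 0 of 10 past the test (median 0.075). Of the 6 duct markers (median -0.021), 1 passed, the chloride channel gene Cftr, at 5.13 and 5.83 in WT and 7.8 and 7.75 in Tg (difference 2.3, adjusted p = 0.0211). Cftr did not pass without Tg replicate 1 (2.27, adjusted p = 0.137) or Tg replicate 2 (2.32, 0.11). The duct genes Sox9 (-0.53) and Muc1 (-0.67) were not past the test, with WT arrays far apart. The part of any of these cell types in the values of the granule genes was not tested.

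Genes that act beside the 9 were read from 5 lists, with 114 of 123 listed genes measured. Over these, 1 gene rose and 1 fell, which is 1.75% beside 0.897% of all genes, and the median difference was -0.014. In the list of granin-like proteins and chaperones 0 of 6 passed (median -0.0034). Scg5, the 7B2 chaperone of prohormone convertase 2, read 10.87 and 10.62 in WT and 10.42 and 10.52 in Tg, a lower level in both Tg arrays (difference -0.27, interval -0.58 to 0.05). Pcsk1n, which encodes the convertase 1/3 inhibitor proSAAS, had a difference of 0.03 (interval -0.3 to 0.36). Nucb2, the precursor of nesfatin-1, was at 0.31 (adjusted p = 0.333), Gnas at -0.21, Resp18, a granule lumen protein, at 0.14 and Nucb1 at -0.03.

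Other processing enzymes gave 0 of 19 past the test, 7 higher and 12 lower, with a median of -0.012. Pam, the enzyme that amidates peptide ends, was nearly the same on all arrays, at 11.76 and 11.78 in WT and 11.74 and 11.79 in Tg (interval of the difference -0.26 to 0.24). Furin, the convertase of the constitutive pathway, had a difference of -0.31 (interval -0.7 to 0.08). The members with the smallest p were the carboxypeptidase genes Cpm (-0.68, adjusted p = 0.223) and Cpn1 (-0.36), the convertase gene Pcsk4 (-0.48), the glutaminyl cyclase gene Qpct (-0.41) and the lysosomal carboxypeptidase gene Prcp (0.36).

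Granule formation and sorting genes had 0 of 25 past the test, with a median of -0.037 and 24 of 25 differences under 0.5 in size. That count is near the share over all genes, of which 95.2% had a difference smaller than the 0.52 of Vgf. The sorting receptor gene Sorcs1 was at -0.53 and the sortilin gene Sort1 at -0.26, while the Golgi calcium pump gene Atp2c1 was at 0.32. Ccdc186 (0.26) and Eipr1 (-0.22), whose products act in dense-core granule maturation, differed in opposite directions. None of these 5 had an adjusted p below 0.344.

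Of the genes for granule membrane and acidification, 1 of 36 rose and 0 fell (median 0.032). Synpr encodes synaptoporin, a vesicle membrane protein of the synaptophysin family. It read 7.81 and 7.48 in WT and 8.69 and 8.77 in Tg, so both Tg arrays stood well above both WT arrays. Its level was 2.13-fold higher (difference 1.09, SE 0.14, adjusted p = 0.0412 from limma). Without WT replicate 2 the Synpr difference was 0.92 and no longer passed (adjusted p = 0.0926), nor did it pass without Tg replicate 1 (1.13, 0.215) or Tg replicate 2 (1.05, 0.191). Slc18a1, the vesicular monoamine transporter VMAT1 that loads granules with serotonin and other amines, was at 9.24 and 8.61 in WT and at 9.98 and 9.9 in Tg (difference 1.01, interval 0.49 to 1.53, adjusted p = 0.136). Of 8 zinc transport genes in this list, 5 were higher, 3 were lower and 0 passed the test. The lower ones were Tmem163 (-0.36), Slc30a9 (-0.15) and Slc39a10 (-0.16), and the higher ones ranged from 0.03 for Slc39a7 to 0.16 for Slc39a1. Rab3d, a small GTPase of granules, was at 0.33 and the chloride transporter gene Clcn3 at -0.25.

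Precursors that these enzymes cut had 1 of 28 lower past the test and 0 higher, with a median of -0.027. The gene that fell was Pdyn, the dynorphin precursor, from 10.26 and 10.37 in WT to 8.17 and 8.87 in Tg (difference -1.79, SE 0.23, adjusted p = 0.0405 from limma). It was called without Tg replicate 2 (-2.14) and not without WT replicate 1 (-1.84, adjusted p = 0.0992), WT replicate 2 (-1.74, 0.131) or Tg replicate 1 (-1.44, 0.0872). The enkephalin precursor gene Penk was at 6.0 and 6.98 in WT and 7.56 and 7.57 in Tg (difference 1.08, adjusted p = 0.258), with WT arrays far apart. Ucn3, the beta cell peptide urocortin 3, was at -0.6 (adjusted p = 0.17). Among islet hormone genes, none past the test, the difference was 0.04 for Ins2, 0.06 for Iapp, 0.06 for Ppy and -0.15 for Gcg. Sst (-0.32) and Ghrl (-0.34) had differences about the size of that of Slc30a8, with groups that did not overlap.

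**Figure D3:**
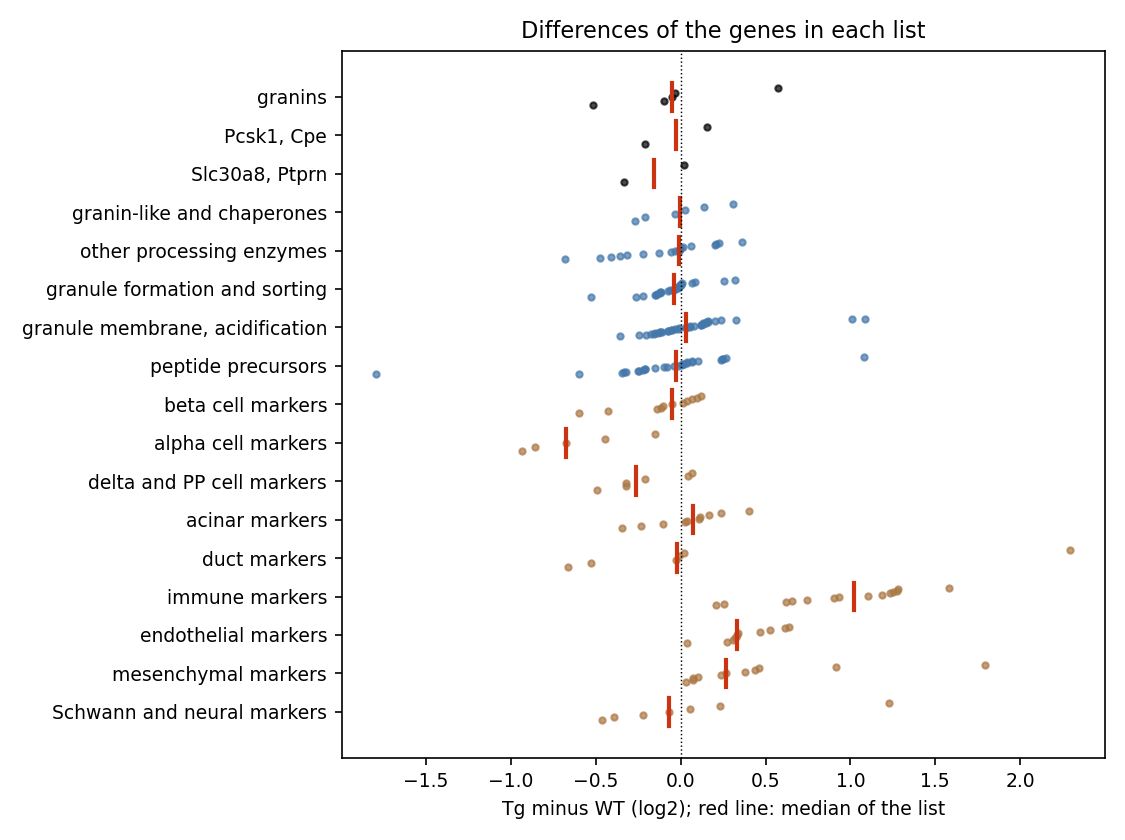
Difference between Tg and WT islets (log2) of every measured gene in each list, with granule genes in black, lists of the granule pathway in blue and cell type markers in brown, and the median of each list as a red line. The medians of the granule pathway lists lie between -0.037 and 0.032, while the immune list has a median of 1.02 and the alpha cell list one of -0.67.

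Chgb had the smallest p of the 9 genes, and the genes most like it were sought over the 4 arrays, among 10599 genes with a mean above the median of all genes and a symbol that is not of a predicted gene. Likeness was the root mean square distance between profiles centred on their own means. The 5 nearest were Fam155a (0.024 log2 units), the ubiquitin-like protease gene Usp18 (0.028), Ntrk2, the receptor of brain-derived neurotrophic factor (0.034), Elmod1 (0.034) and the potassium channel gene Kcnk5 (0.036). They were chosen for a profile like that of Chgb, so their differences had to lie near its 0.58. Those differences lay between 0.54 for Usp18 and 0.64 for Kcnk5. Over 4 arrays such likeness was not limited to these 5: 130 of the 10599 genes lay within 0.1 of Chgb.

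**Figure D4:**
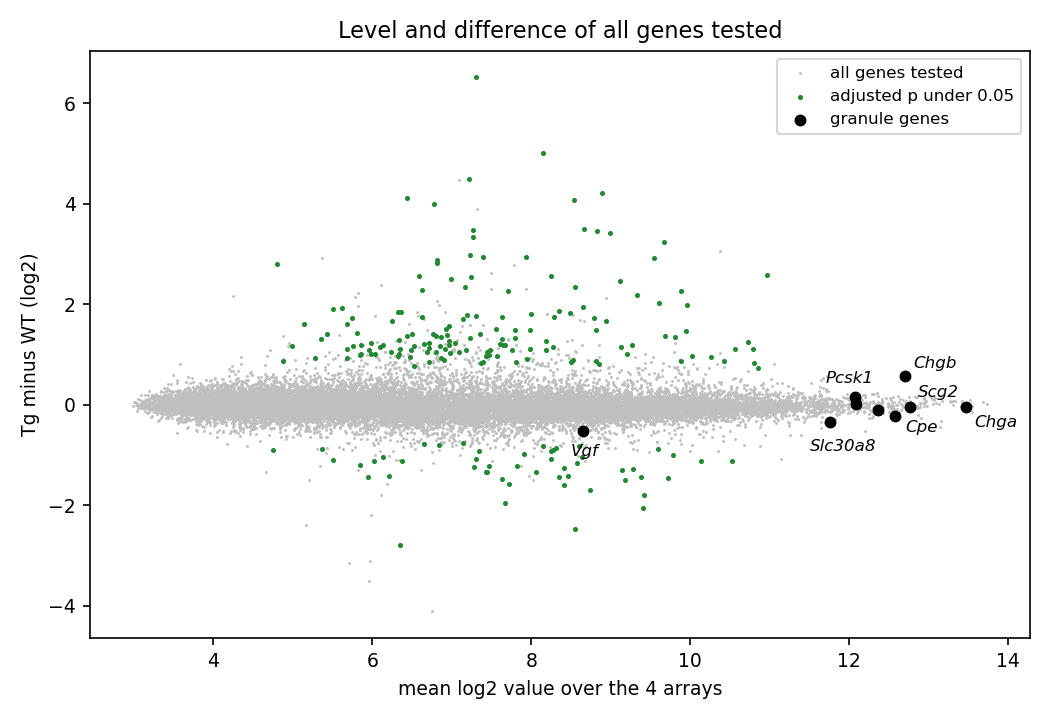
Mean log2 value over the 4 arrays against the difference between Tg and WT for all 22180 genes tested (grey), those past the adjusted threshold (green) and the 9 granule genes (black). Of the granule genes, 8 lie at the bright end with Chgb above the others, and Vgf lies lower on the scale of brightness at a difference of -0.52.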

How the data were processed

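The deposited values are log2 intensities of Affymetrix Mouse Gene 2.0 ST arrays, made from 250 ng of total RNA per the labels' protocols. The authors processed them with Partek and RMA per the submitters' processing notes, with no versions; the log2 scale was read from the range of 2.87 to 13.9. No coordinates of probes are printed, the array's genome build being not given in the sources used here. The platform annotation paired 23521 of 27037 probesets with 1 gene symbol, and the brightest by mean over the 4 arrays stood for a gene. No filter on dim genes was used. Groups were taken from the sample titles. The fit used limma 3.58.1 (lmFit, then eBayes) under R 4.3.3 (2 residual degrees of freedom, 3.758 from the prior), with Benjamini-Hochberg adjustment over 22180 genes. The fit was tested on simulated data drawn from limma's own variance model, with planted changes larger than those of the granule genes. That test does not check the variance model on these arrays. The number of arrays limits the precision.

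The members and lists were chosen with earlier results of these data known. Named genes were the 9, up to 5 of smallest p in each pathway list with any past the threshold, a fixed set (Ffar3, Ins2, Gcg, Sst, Ppy, Iapp, Ptprn2, Scg5, Pcsk1n, Pam and Furin), and the 5 nearest in profile to the member of smallest p. Etv1, Coro1a, Cftr, Sox9, Muc1, Ctrb1, Dcn, Gjd2 and the zinc transporters Slc30a9, Slc39a10, Slc39a7 and Slc39a1 were named after their values were seen. A comparison of Pcsk1 with Pcsk2 and features of protein sequences had been planned and are not analysed here. Alternatives were the probeset choice, all probesets, a level filter, scaling, the variance prior, the replicate number as a block and each array left out; centring on the 9 genes was added after the data were seen.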

Additional observations from a re-analysis of the deposited data

How the results depend on the processing

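Against 199 genes called, no moderation left 0 (2627 had an unadjusted p under 0.05 with limma), and there were 347 when the prior was robust with a variance trend, 24 with the replicate block, and 38 to 135 with each array left out. The 9 granule genes gave 0 calls in all but 1 of the 14 alternatives; the exception, a variance trend and robust prior, gave 1, Chgb. The 2 calls in the pathway lists were 1 with quantile normalisation once more (Pdyn at an adjusted p of 0.0562), 0 without moderation, 0 with the replicate block, and 0 to 2 with each array left out. Same-numbered arrays of the groups had deviations that correlated at -0.06306 over genes, and the labels do not say that a number marks a shared litter or day. The median of the 9 genes ran from -0.12 to 0.011 with each array left out. For single granule genes, 7 of the 14 alternatives change only the variance or the genes entered and so keep every difference. Of the 63 values from the other 7, 6 reversed a difference that had not passed, in 3 genes: Chga (0.0089 with quantile normalisation, 0.011 without WT replicate 1, 0.016 centred on the 9 genes, chosen after seeing the data), Scg2 (0.024 without WT replicate 1, 0.0009 centred on the 9 genes) and Ptprn (-0.087 without WT replicate 2). Leaving out arrays, Chga ran from -0.081 to 0.011, Scg2 from -0.12 to 0.024 and Ptprn from -0.087 to 0.13. The cause was not tested. None of the 9 had a second probeset paired with its symbol alone, so averaging probesets left their own values as they were. Probesets with several symbols or none were not read for these genes. Where 1 array was left in a group, it was assumed to vary like the other group.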

Other observations

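At the Pcsk2 locus the annotation named 2 antisense transcripts, each with its own probeset, which do not stand for Pcsk2 and were looked at because Pcsk2 was not measured. Pcsk2os1 read 7.8 and 7.49 in WT, against 8.13 and 7.94 in Tg (difference 0.39, 95% interval 0.02 to 0.76, adjusted p = 0.396 from limma). Pcsk2os2, a dim probeset, read 4.93 and 5.12 in WT and 4.67 on both Tg arrays (difference -0.36, interval -0.64 to -0.07, adjusted p = 0.318). The groups did not overlap for either, the transcripts differed in opposite directions, and neither passed the test.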
